A study of Rattus norvegicus with 69 samples.

Results

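Mitochondrial ribosomal protein genes were measured in rat whole blood as the probe sets annotated to exactly 1 symbol that begins with Mrpl or Mrps followed by a digit. The rule gave 64 probe sets of 63 genes, with Mrpl30 on 2 probe sets and represented by the brighter one, among 14557 genes with 1 symbol and 36685 probe sets in all. All 63 genes passed the filter on variance and were tested. The large ribosomal subunit accounted for 42 of them and the small subunit for 19, Mrps18a and Mrps30 being counted with the large subunit, where their proteins sit. The pseudogene Mrps11-ps1 and the gene listed as Mrps21l were placed in neither class.

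The arrays compared Sprague-Dawley rats, males bought at 9 weeks of age, that inhaled laser printer-emitted particles (PEPs) together with the gaseous emissions of printer B1 with rats that inhaled HEPA-filtered air, by whole-body exposure for 5 hours per day over up to 21 days. Blood was taken on days 1, 5, 9 and 13 from 5 rats per arm, on day 17 from 4 air and 5 PEPs-exposed rats, and on day 21 from 6 rats per arm. A further 4 air and 4 PEPs-exposed rats of day 21 carried a radio telemetry implant. This gave 69 arrays in 14 groups, 34 of filtered air and 35 of exposure, each hybridised with biotinylated cDNA made from 400 ng of total RNA. Rats on different days were different animals, so a change over days is a comparison between groups of rats that also differed in age and time in the chambers. The exposure experiment was run more than once and the run of an array is not given. The part of the run in a change over days therefore cannot be told apart.

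Mitochondrial ribosomal proteins are encoded in the nucleus, made in the cytosol and imported into mitochondria, where they join ribosomal RNA of the mitochondrial genome. The mitochondrial ribosome makes the few respiratory chain subunits that this genome encodes. Part of its proteins have a counterpart in the bacterial ribosome, whereas others are found only in mitochondria; 34 of the measured genes belonged to the former kind and 27 to the latter. In blood, nucleated white cells, platelets and immature red cells carry mitochondria, while mature red cells of mammals have none.

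Promoters were matched for 50 of the 63 genes in a RefSeq table of the bases around each start (250 before and 50 after; assembly GRCr8). They are shown for the genes whose course over days is described below, with capitals marking 2 short motifs that were searched on both strands, CCGGAAG (bound by ETS factors such as GABP, or nuclear respiratory factor 2) and AAGATGGC (bound by YY1).
Mrpl27: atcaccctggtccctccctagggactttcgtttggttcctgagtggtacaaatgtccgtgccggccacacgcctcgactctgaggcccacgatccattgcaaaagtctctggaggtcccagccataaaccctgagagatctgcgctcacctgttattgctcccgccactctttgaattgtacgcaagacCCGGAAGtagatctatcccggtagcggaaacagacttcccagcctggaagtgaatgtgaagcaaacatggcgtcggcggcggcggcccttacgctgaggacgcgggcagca
Mrpl37: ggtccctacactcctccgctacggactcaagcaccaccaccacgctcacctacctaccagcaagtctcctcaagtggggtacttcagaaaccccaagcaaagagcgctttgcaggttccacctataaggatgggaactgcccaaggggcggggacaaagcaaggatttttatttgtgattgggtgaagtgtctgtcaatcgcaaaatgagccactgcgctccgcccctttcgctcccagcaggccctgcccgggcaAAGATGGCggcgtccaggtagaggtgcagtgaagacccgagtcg
Mrpl53: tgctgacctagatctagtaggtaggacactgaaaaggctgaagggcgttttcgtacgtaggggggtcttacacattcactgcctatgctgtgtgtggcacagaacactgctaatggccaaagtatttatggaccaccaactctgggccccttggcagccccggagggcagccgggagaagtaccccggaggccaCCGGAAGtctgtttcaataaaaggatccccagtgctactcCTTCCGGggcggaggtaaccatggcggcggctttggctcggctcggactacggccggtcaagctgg
Mrps23: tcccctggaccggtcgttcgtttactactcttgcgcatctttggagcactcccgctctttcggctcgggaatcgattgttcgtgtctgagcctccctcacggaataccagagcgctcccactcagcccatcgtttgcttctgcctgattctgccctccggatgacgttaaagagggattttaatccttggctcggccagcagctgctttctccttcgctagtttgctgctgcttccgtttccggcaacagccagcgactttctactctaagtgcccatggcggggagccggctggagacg
Mrpl3: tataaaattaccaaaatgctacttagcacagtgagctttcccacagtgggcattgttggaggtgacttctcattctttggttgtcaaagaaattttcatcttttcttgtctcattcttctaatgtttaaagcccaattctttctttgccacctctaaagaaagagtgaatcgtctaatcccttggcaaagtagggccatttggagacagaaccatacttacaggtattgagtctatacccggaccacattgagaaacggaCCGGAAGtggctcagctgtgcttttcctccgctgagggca
The Mrpl27 window (chr10:80092095-80092394, plus strand) held the ETS letters 61 bases before the start, and the gene Eme1 starts 44 bases away in the opposite direction. The Mrpl53 window (chr4:117172793-117173092, plus strand) held them at 56 and 16 bases before the start, and the Mrpl3 window (chr8:114548720-114549019, plus strand) at 10 bases after it. The Mrpl37 window (chr5:127074918-127075217, minus strand) held the YY1 letters 6 bases after the start, and the Mrps23 window (chr10:73495988-73496287, plus strand) held neither. Of the 50 promoters, 16 (32%) held the ETS letters, against 9.22% of 27457 promoters of the same length. The YY1 letters were in 11 (22%, against 3.44%), and GCATGCGC, bound by nuclear respiratory factor 1 (NRF1), was in 4 (8%, against 2.66%), among them Mrpl22.

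A neighbouring gene started head to head within 1000 bases for 16 of the 50 genes (32%), against 10.9% of all genes, and the median GC content was 55.7% against 52.3%. Mrpl46 and Mrps11 are such a pair, their starts 234 bases apart. These are properties of the sequence. For the counts that follow, the genes were sorted by their change over days averaged over the arms. Any of the 3 motifs was present in 3 of the 6 genes that rose and in 3 of the 5 with a promoter that fell. Of the 39 that did not pass, 19 held a motif. A link between the motifs and the exposure was not tested.

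At every day of PEPs exposure, 0 of the 63 genes passed at a limma adjusted p under 0.05. The share of all 34176 tested probe sets that passed was 0% on days 1, 5, 17 and 21, 0.00585% (2 probe sets) on each of days 9 and 13 and in the telemetry rats, and 0% for the mean of the 6 days. The plot of exposed against air values shows the genes lying within and around the range of the middle 50% of all probe sets on each day.

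**Figure D1:**
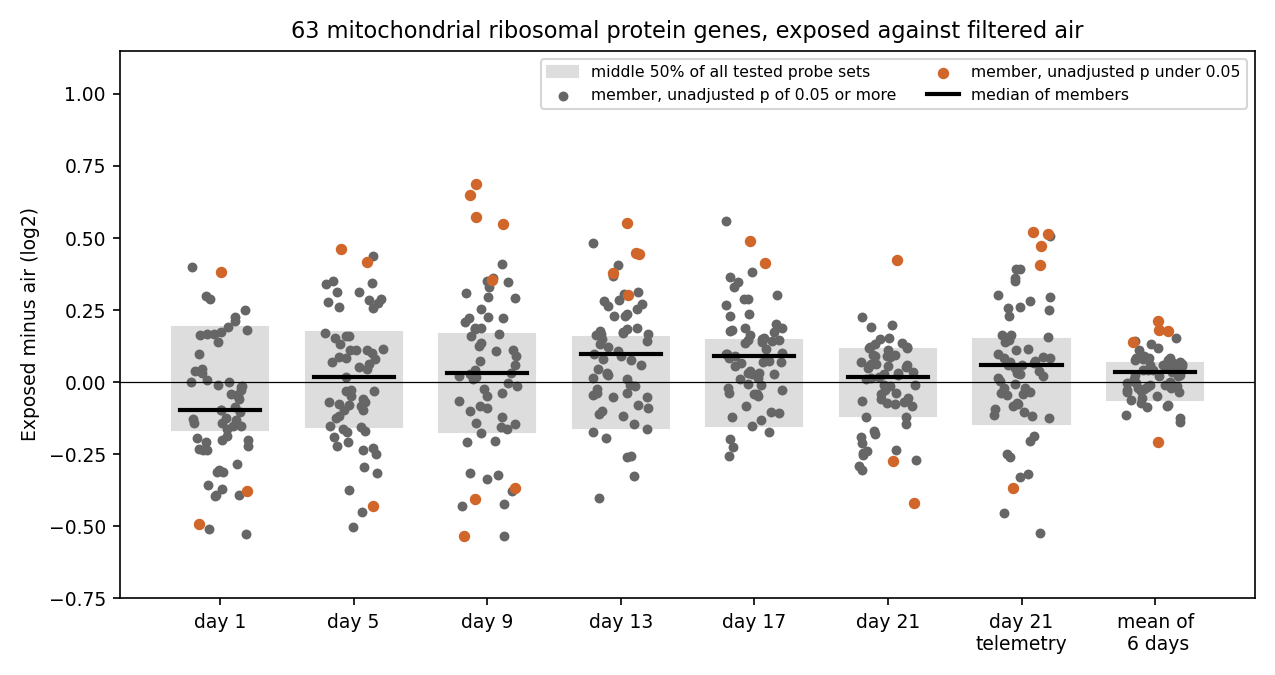
Fitted difference between PEPs-exposed and air rats (log2, vertical axis) for each of the 63 genes at each day, in the telemetry rats and over the mean of 6 days; grey boxes hold the middle 50% of all tested probe sets and black bars are the medians of the 63 genes. The median lay at −0.10 on day 1 and between 0.02 and 0.10 on the other days, and coloured points (unadjusted p under 0.05) numbered 2 to 8 per day.

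At an unadjusted p under 0.05, which the text uses as a description only, 3 of the 63 genes (4.76%) differed on day 1, against 6.59% of all probe sets. On day 5 there were 3 (4.76%, against 5.61%), on day 9 8 (12.7%, against 7.12%), on day 13 5 (7.94%, against 7.7%), on day 17 2 (3.17%, against 4.88%) and on day 21 3 (4.76%, against 4.96%). In the telemetry rats there were 5 (7.94%, against 5.33%) and for the mean of the 6 days 5 (7.94%, against 6.17%). The share of the 63 genes was below that of all probe sets on 4 of the 6 days, near it on day 13 and above it on day 9.

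The median difference of the 63 genes was −0.10 on day 1, when 44 of them had lower values in PEPs-exposed rats, against 0.01 for all probe sets. It was 0.10 on day 13 (42 of 63 higher) and 0.09 on day 17 (45 of 63 higher), where the median of all probe sets was −0.0089 and −0.0013. Single arrays weighed on the median of every day. That of day 1 was −0.03 without exposed replicate 1 and −0.12 without exposed replicate 3. The median of day 13 was 0.03 without exposed replicate 3 and 0.17 without air replicate 3, and that of day 17 was 0.03 without air replicate 2 and 0.16 without air replicate 4. On day 5 the median was 0.02, or −0.08 without exposed replicate 3, 0.06 without air replicate 3 and −0.02 without array weights. On day 9 it was 0.03, or 0.0034 without air replicate 5, 0.11 without air replicate 4 and −0.01 after cyclic loess. On day 21 it was 0.02, or −0.02 without air replicate 2, 0.04 without exposed replicate 2 and −0.0039 with each array centred on its median. Over the mean of 6 days it was 0.03, with 37 of 63 genes higher, and between 0.02 (without air replicate 2 of day 17) and 0.05 (without air replicate 2 of day 13) with single arrays left out. The medians were not tested.

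On day 1 other measures of the arrays lay on the same side. The 15 measured mitoribosome assembly factors had a median of −0.25 (1 higher), the 17 T cell genes −0.24 (0 higher) and the 36 tested cytosolic ribosomal protein genes −0.11 (9 higher), whereas the 13 platelet genes had a median of 0.66. The lower quartile of intensities, a measure of the dim end of an array, averaged 1.60 ± 0.08 in exposed and 1.57 ± 0.13 in air rats (SD, n = 5 each), without array weights. Each arm of day 1 held 1 array of weight under 0.5, and without them the averages were 1.57 ± 0.03 and 1.51 ± 0.02 (SD, n = 4 each). On day 13 the lower quartile was 1.46 ± 0.06 in exposed and 1.54 ± 0.14 in air rats, or 1.48 ± 0.05 in air without its array of low weight (n = 4). Cytosolic ribosomal protein genes then had a median of 0.18 and T cell genes of 0.10, whereas it was −0.32 for monocyte (2 of 12 higher), −0.08 for B cell and −0.05 for synthetase genes. On day 17 the medians were 0.29 for neutrophil, 0.17 for complex I, 0.14 for T cell and 0.12 for cytosolic ribosomal protein genes, and −0.29 for B cell genes (0 of 7 higher). The part of these measures in the medians was not tested beyond the fit with the lower quartile as a covariate, in which the median of the 63 genes was −0.03 on day 1 and 0.03 on day 13. In whole blood, fewer cells of a type and less RNA per cell cannot be told apart.

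Day 9 held the smallest p-values of any day. Mrpl37, a protein of the large subunit found only in mitochondria, had 8.92, 8.15, 8.62, 8.35 and 8.58 on the log2 scale in the 5 air arrays and 7.83, 8.03, 8.30, 7.83 and 7.73 in the 5 exposed arrays. The exposed arrays were lower and the groups overlapped at 1 exposed array. The fitted difference was −0.53 ± 0.15 (SE, adjusted p = 0.389). Mrps17, the counterpart of the bacterial small subunit protein S17, had 4.04, 4.60, 3.92, 4.34 and 4.29 in air and 4.37, 5.42, 5.06, 4.78 and 4.75 in exposed rats (0.65 ± 0.20, adjusted p = 0.42). Its groups overlapped only at the lowest exposed array, and air arrays were lower.

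Mrps14, the counterpart of bacterial S14, was the other gene that reached 1.5-fold on day 9, and it is named here after its values were seen. Air arrays held 3.88, 3.65, 3.30, 3.55 and 3.49 and exposed arrays 4.09, 3.98, 4.39, 4.24 and 4.45, so the groups did not overlap (0.69 ± 0.25, adjusted p = 0.514). No gene of the 63 reached 1.5-fold in the exposure comparison of another day. Fits that left out single arrays of day 9 kept the signs of Mrpl37 and Mrps17, and neither passed in any of them.

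On day 13 the largest statistics belonged to 2 proteins of the large subunit. Mrpl51, found only in mitochondria, had 4.31, 5.26, 5.15, 4.28 and 4.83 in air and 5.11, 5.50, 5.51, 5.77 and 4.98 in PEPs-exposed rats (0.55 ± 0.20, adjusted p = 0.438). Mrpl14, the counterpart of bacterial L14, had 3.07, 3.63, 3.14, 3.60 and 3.10 in air and 4.11, 3.85, 3.56, 3.93 and 3.61 in exposed rats (0.44 ± 0.18, adjusted p = 0.544). In both genes exposed arrays tended to be higher and the groups overlapped. On day 17 the values of Mrps17 were 4.17, 4.11, 4.11 and 4.54 in air and 4.38, 4.33, 4.81, 4.60 and 5.07 in exposed rats, with 1 air array inside the exposed range (0.41 ± 0.20, adjusted p = 1). Mrps9, the counterpart of bacterial S9, differed by 0.49 ± 0.20 (adjusted p = 0.981) on that day. With single arrays left out, the difference of Mrps17 was between 0.27 (without exposed replicate 5) and 0.52 (without air replicate 4), and that of Mrps9 between 0.30 (without air replicate 2) and 0.72 (without air replicate 4).

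At day 1, the 5 air values of Mrps5, the counterpart of bacterial S5, were 4.09, 4.24, 4.53, 4.31 and 3.99 and the exposed values 3.48, 3.99, 3.96, 3.97 and 3.87. Exposed arrays were lower, and the highest of them reached the level of the lowest air array. The fitted difference was −0.38 ± 0.18 (adjusted p = 0.745), and on day 5 it was −0.43 ± 0.18 (adjusted p = 0.806). Mrps34, a small subunit protein found only in mitochondria, differed by 0.38 ± 0.18 on day 1. On day 5 Mrpl43, a large subunit protein of the same kind, had 4.78, 4.69, 4.72, 4.54 and 4.64 in air and 5.24, 5.29, 4.78, 5.12 and 5.13 in exposed rats, the lowest exposed array lying at the level of the highest air array (0.42 ± 0.17, adjusted p = 0.806). Over the mean of 6 days the smallest p-values were those of Mrps31 (0.21 ± 0.09, adjusted p = 0.762) and Mrps17 (0.18 ± 0.08, adjusted p = 0.777).

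Whether the exposure effect differed between the 6 days was tested for each gene, and 0 of the 63 passed, as did 0% of all probe sets. Mrpl37 had the smallest p of the 63 (limma adjusted p = 0.592), with exposed minus air differences of 0.31 ± 0.16 on day 5 and −0.53 ± 0.15 on day 9. Mrpl38, a large subunit protein found only in mitochondria, followed (adjusted p = 0.683).

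Within an arm, the values of several genes changed over the days of sampling. An F-test over the 6 days passed for 3 of the 63 genes in filtered air (4.76%, against 1.81% of all probe sets), namely Mrpl37 (limma adjusted p = 0.00309), Mrpl27 (0.0116) and Mrps21l (0.0175). In PEPs-exposed rats it passed for 2 (3.17%, against 4.71%), Mrpl37 (0.0323) and Mrpl27 (0.0328). In the exposed arm the count was 0 without array weights and with only the exposed arrays in the fit, and between 0 and 3 when single arrays were left out. Fitted with the lower quartile of each array as a covariate, 0 of the 63 passed in either arm. The share of all probe sets in these alternative fits is not given here. A loss of calls across the whole array therefore cannot be told from a loss particular to these genes.

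A linear change from day 1 to day 21, averaged over the arms, passed for 13 of the 63 genes. Of these, 6 rose (9.52%, against 14.7% of all probe sets) and 7 fell (11.1%, against 11.3%), so neither share exceeded that of the array as a whole. At an unadjusted p under 0.05 there were 25 (39.7%, against 39.1%). The median change was 0.08, against −0.03 for all probe sets, with 43 of 63 genes above 0, but it was −0.08 after cyclic loess and −0.11 with the lower quartile as a covariate. After cyclic loess 14 of the 63 genes passed, 0 up (against 5.6% of all probe sets) and 14 down (against 6.19%), and 7 of the 13 were among them. With the lower quartile as a covariate 0 rose (against 0.544%) and 2 fell (against 1.11%). The plot of changes over days orders the genes by this estimate.

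**Figure D2:**
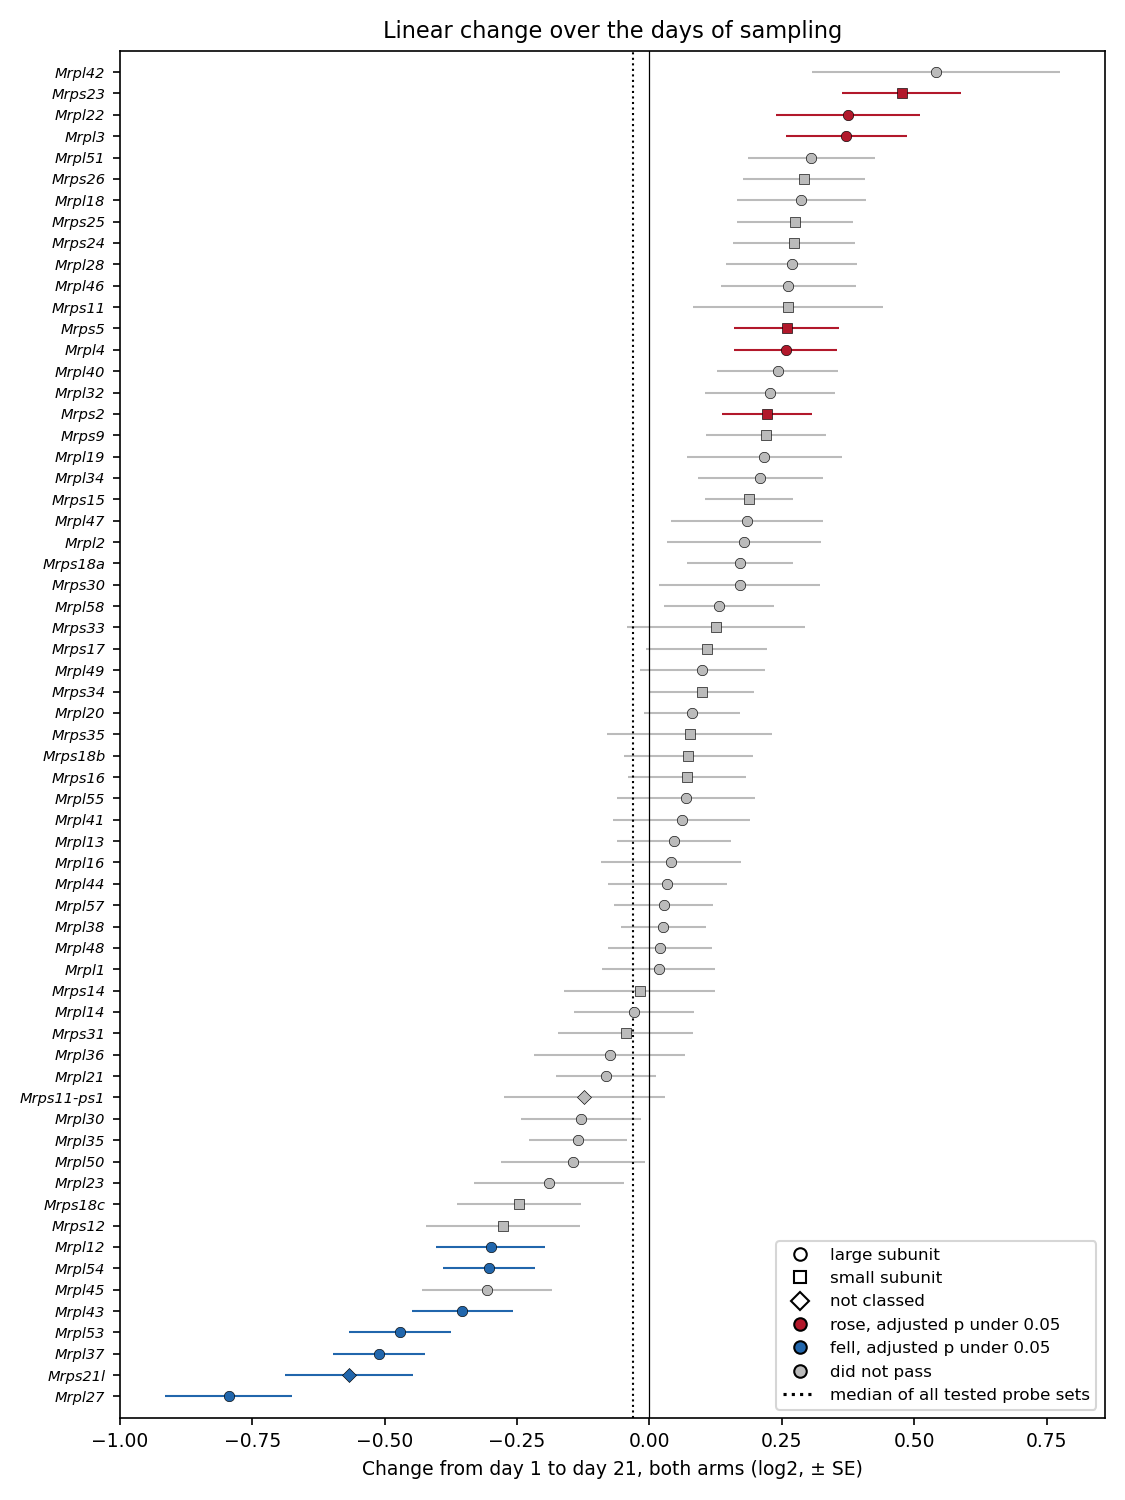
Linear change from day 1 to day 21 over both arms (log2, horizontal axis, bars are standard errors) for each of the 63 genes, with the subunit given by the symbol and the call by the colour. The 7 genes that fell lie between −0.79 and −0.30 and the 6 that rose between 0.22 and 0.48; the dotted line is the median of all tested probe sets.

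Mrpl27 showed the steepest fall, and its promoter is the first of those printed above. It is the counterpart of bacterial L27, a protein close to the site of peptide bond formation in the bacterial ribosome. On day 1 its values were 6.21, 5.67, 6.04, 6.55 and 5.75 in air and 5.72, 6.47, 5.76, 6.55 and 4.97 in exposed rats. On day 21 they ran from 5.20 over a median of 5.33 to 5.78 in air and from 5.12 over 5.52 to 5.78 in exposed rats. Early arrays were higher in both arms, with overlap, and 1 exposed array of day 1 lay below all arrays of day 21. The change was −0.79 ± 0.12 over both arms (adjusted p = 2.31e-06), −0.91 ± 0.17 in air (adjusted p = 0.000506) and −0.68 ± 0.17 in PEPs-exposed rats (adjusted p = 0.00535).

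Group means of Mrpl27 in air were 6.04, 5.87, 5.70, 5.59, 4.92 and 5.38 on days 1, 5, 9, 13, 17 and 21, the lowest being that of the 4 arrays of day 17. In exposed rats they were 5.90, 6.0, 5.41, 5.37, 5.38 and 5.50. A departure from a straight line was not tested. The telemetry rats of day 21 averaged 5.67 in air and 5.70 in exposed rats.

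Mrpl37 had values of 8.62, 9.11, 7.75, 7.98 and 7.97 in the air arrays and 8.16, 8.56, 7.98, 7.91 and 8.35 in the exposed arrays of day 1. On day 21 air arrays ran from 7.30 over a median of 7.66 to 7.83 and exposed arrays from 7.62 over 7.68 to 7.85. Exposed arrays of the 2 days did not overlap, and in air 1 array of day 1 lay within the range of day 21. The change was −0.51 ± 0.09 (adjusted p = 1.7e-05), with −0.48 ± 0.12 in air and −0.54 ± 0.12 in exposed rats. Group means in air were 8.28, 7.96, 8.52, 8.11, 7.84 and 7.64 over the 6 days and in exposed rats 8.19, 8.34, 7.94, 8.08, 7.83 and 7.70, with the highest mean of the air arm on day 9.

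Other genes that fell also coded for the large subunit, apart from Mrps21l. Mrpl53, found only in mitochondria, held 7.89, 8.34, 8.22, 8.26 and 8.15 in air and 7.94, 8.11, 8.40, 8.21 and 7.74 in exposed rats on day 1. On day 21 air arrays had a lowest value of 7.28, a median of 7.78 and a highest value of 7.97, and exposed arrays 7.62, 7.86 and 8.0. Day 1 arrays were higher, with overlap (−0.47 ± 0.10, adjusted p = 0.000265). Mrps21l changed by −0.57 ± 0.12 (adjusted p = 0.000414), Mrpl43 by −0.35 ± 0.10, Mrpl54 by −0.30 ± 0.09 and Mrpl12, the counterpart of the bacterial stalk protein L7/L12, by −0.30 ± 0.10 (adjusted p = 0.0249). Mrpl12 is named to complete the 7.

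**Figure D3:**
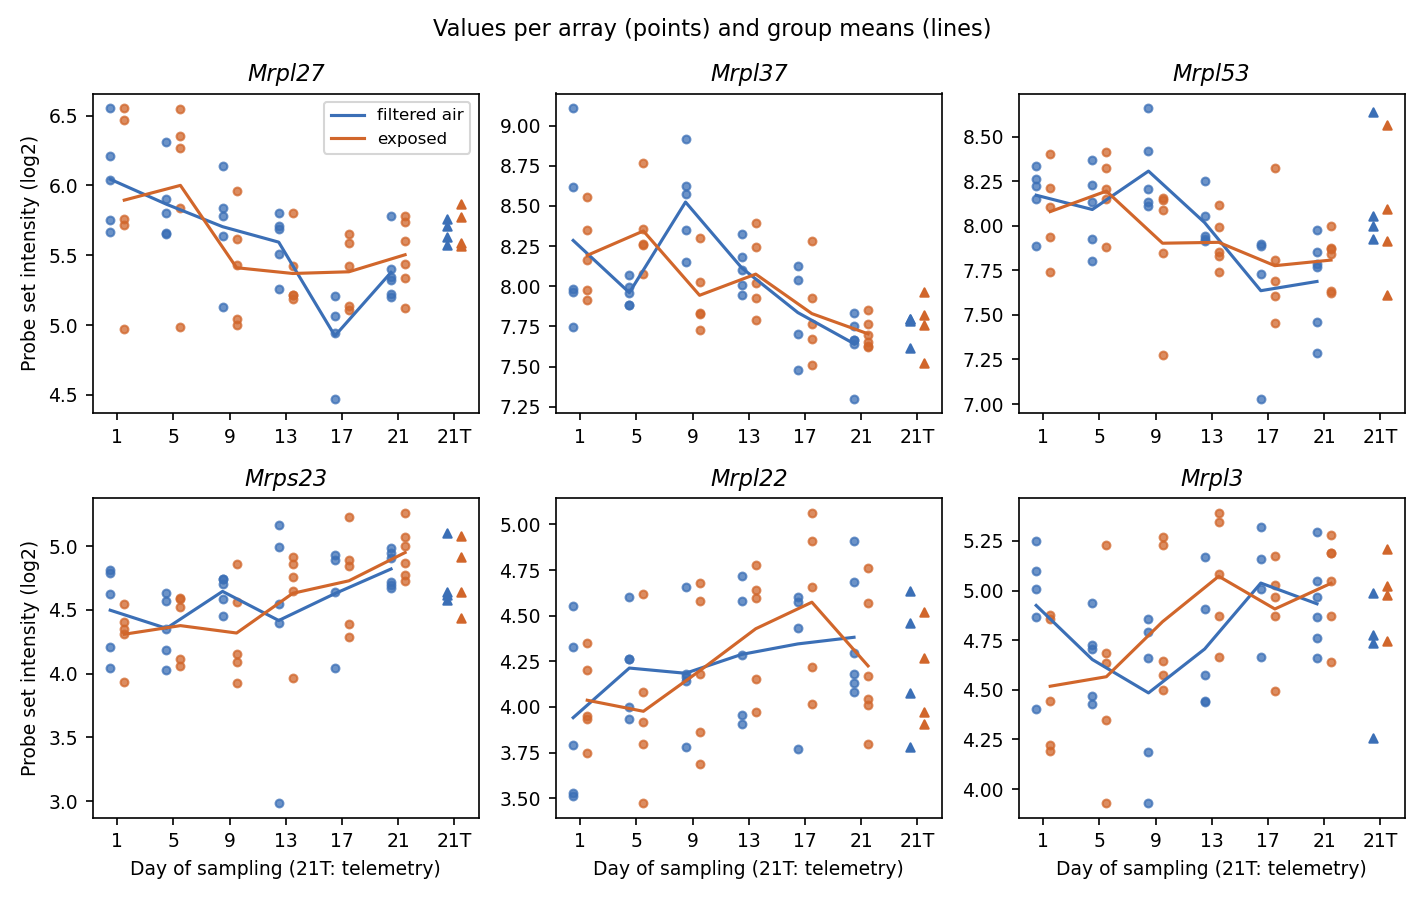
Probe set intensity (log2, vertical axis) by day of sampling (horizontal axis) for 3 genes that fell and 3 that rose, with a point per array, lines through group means and triangles for telemetry rats; blue is filtered air and orange is exposure. Mrpl27 and Mrpl37 had lower group means on days 17 and 21 than on day 1 in both arms, and the points of the arms overlap on most days.

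Among the genes that rose, Mrps23, a small subunit protein found only in mitochondria, had 4.63, 4.05, 4.21, 4.79 and 4.82 in air and 4.41, 4.31, 4.54, 4.35 and 3.94 in exposed rats on day 1. On day 21 air arrays ran from 4.67 over a median of 4.81 to 4.99 and exposed arrays from 4.73 over 4.93 to 5.26. Exposed arrays of the 2 days did not overlap, whereas air arrays did. The change was 0.48 ± 0.11 over both arms (adjusted p = 0.0013), 0.63 ± 0.16 in exposed rats (adjusted p = 0.00508) and 0.32 ± 0.16 in air (adjusted p = 0.232). The difference of the changes between the arms was not past the threshold for any of the 63 genes (below).

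Mrpl3, the counterpart of bacterial L3, held 5.25, 5.01, 5.10, 4.41 and 4.87 in air and 4.45, 4.88, 4.86, 4.19 and 4.22 in exposed rats on day 1. Its day 21 medians were 4.92 in air and 5.12 in exposed rats, which overlapped day 1 in both arms (0.37 ± 0.11, adjusted p = 0.0124). Mrpl22, the counterpart of the exit tunnel protein L22, changed by 0.37 ± 0.14 (adjusted p = 0.0352), and its air values on day 1 were spread from 3.51 to 4.55. Mrps5 (0.26 ± 0.10), Mrpl4 (0.26 ± 0.10; bacterial L4) and Mrps2 (0.22 ± 0.09; bacterial S2) had adjusted p-values between 0.0433 and 0.0465. By arm, the changes of Mrpl3, Mrps5 and Mrps2 were 0.21, 0.05 and 0.09 in air and 0.54, 0.47 and 0.35 in exposed rats. Those of Mrpl22 and Mrpl4 were 0.37 and 0.25 in air and 0.38 and 0.27 in exposed rats. The difference between the arms passed for none of them. Of 61 fits that each left out 1 array, Mrpl22 lost its call in 10, Mrps5 in 21, Mrpl4 in 22 and Mrps2 in 30. All 6 rises lost their call after cyclic loess, with the lower quartile as a covariate, and with the mean of the erythroid genes as a covariate. The share of all probe sets that rose also went down in these fits. It was 14.7% in the main fit and 5.6%, 0.544% and 0% in these, in the same order.

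By subunit, 3 of the 42 large subunit genes rose and 6 fell, with a median of 0.05, and 3 of the 19 small subunit genes rose and 0 fell, with a median of 0.13. Genes with a bacterial counterpart gave 5 that rose and 2 that fell of 34 (median 0.09), and genes found only in mitochondria 1 and 4 of 27 (median 0.08). Of all probe sets 14.7% rose and 11.3% fell, and the difference between these classes was not tested.

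In filtered air alone 0 of the 63 genes rose over days (background 2.5% of probe sets) and 4 fell (6.35%, against 2.33%), namely Mrpl27, Mrps21l, Mrpl37 and Mrpl53. In PEPs-exposed rats 5 rose (7.94%, against 8.82%) and 4 fell (6.35%, against 6.41%). The 5 were Mrps23, Mrps5, Mrpl3, Mrpl51 and Mrps2, and the 4 were Mrpl37, Mrpl27, Mrpl53 and Mrpl43. The median over the 63 genes was 0.04 in air and 0.13 in exposed rats, and each was below 0 after cyclic loess (−0.10 and −0.05). The change over days in exposed minus air rats passed for 0 of the 63 genes, against 0% of all probe sets, and at an unadjusted p under 0.05 for 2 (3.17%, against 5.71%). These were Mrpl16 (0.63 ± 0.26, adjusted p = 0.841), the counterpart of bacterial L16, and Mrps5 (0.43 ± 0.20, adjusted p = 0.853).

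Other genes of mitochondrial translation were set beside the ribosomal proteins, by lists drawn up from their functions, and the counts stand beside 14.7% of all probe sets that rose and 11.3% that fell. In the change over days of both arms, 2 of 5 ribosomal proteins with other names rose and 0 fell: Dap3, the GTP-binding protein of the small subunit (0.59 ± 0.13, limma adjusted p = 0.000488), and Ptcd3 (0.37 ± 0.09, 0.0023). Of 15 assembly factors 5 rose and 0 fell, with a median of 0.25, among them Tfb1m, which methylates the small subunit RNA (0.57 ± 0.12, 0.000467), and Mrm2, a methyltransferase of the large subunit RNA (0.49 ± 0.14, 0.0063). Translation factors gave 7 of 12 that rose and 0 that fell (median 0.28), including the initiation factor Mtif2 (0.50 ± 0.11, 0.000693) and Mtfmt, which formylates the initiator tRNA (0.60 ± 0.15, 0.00231).

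Mitochondrial aminoacyl-tRNA synthetases gave 3 of 11 that rose and 0 that fell (median 0.20), with Wars2, the tryptophan enzyme, at 0.74 ± 0.13 (adjusted p = 4.56e-05). Of 18 regulators of mitochondrial transcription and biogenesis 8 rose and 0 fell (median 0.24). They included both subunits of the factor whose letters are marked in the promoters above, Gabpa (0.30 ± 0.08, 0.00713) and Gabpb1 (0.59 ± 0.14, 0.00102), and Yy1 (0.19 ± 0.06, 0.0204). These are named because of the marked letters. The ETS letters were in 2 of 6 promoters of mitochondrial ribosomal protein genes that rose and 2 of 5 that fell. The count was 12 of the 39 that did not pass. For the YY1 letters the counts were 0, 1 and 10 in the same order. A link between these regulators and the ribosomal protein genes was not tested. Nuclear genes of respiratory complex I, which is assembled together with subunits made on the mitochondrial ribosome, gave 2 of 42 that rose and 13 that fell (median −0.11; listed by symbol, pseudogenes included). Cytosolic ribosomal protein genes gave 7 that rose and 2 that fell of 36 (median 0.13).

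The direction of these lists depended on the scaling for some. After cyclic loess, when 5.6% of all probe sets rose and 6.19% fell, the genes that rose numbered 1 of 5 ribosomal proteins with other names (median −0.03), 1 of 15 assembly factors (0.09), 2 of 12 translation factors (0.09), 2 of 11 synthetases (0.06, with 1 that fell) and 2 of 18 regulators (0.08). Complex I genes then gave 0 that rose and 15 that fell. With the lower quartile as a covariate, when 0.544% of all probe sets rose and 1.11% fell, the genes that rose numbered 0, 0, 0, 0 and 1 in the same order, and complex I genes gave 0 that rose and 7 that fell. Cytosolic ribosomal protein genes kept 6 that rose and 2 that fell after cyclic loess, and gave 0 and 1 with the covariate.

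Blood cell markers moved over the same days. Of 10 measured erythroid and reticulocyte genes 4 were not tested, since their variance was under the minimum, a filter that leaves out genes that change little, and the other 6 fell (median −0.67), for example Slc25a37, the mitochondrial iron importer of red cell precursors (−1.12 ± 0.12, adjusted p = 7.95e-10), and Tfrc, the transferrin receptor (−0.72 ± 0.10). The mean of the 10 measured erythroid genes lay between 10.4 and 10.7 in the 5 air arrays of day 1 and between 9.88 and 10.3 in the 6 of day 21. Of 17 T cell genes 14 rose and 0 fell (median 0.36), of 12 monocyte genes 6 rose and 0 fell, and of 12 NK and cytotoxic genes 5 rose and 0 fell. Of 7 B cell genes 1 rose and 0 fell. Of all probe sets 14.7% rose and 11.3% fell. After cyclic loess (5.6% and 6.19%) 6 erythroid genes fell and 10 T cell genes rose. With the lower quartile as a covariate (0.544% and 1.11%) these counts were 3 and 1. Platelet genes gave 0 of 13, and neutrophil genes 0 that rose and 2 that fell of 15. With the erythroid mean as a covariate, chosen after seeing the data, 0 of the 63 genes and 0 of all probe sets passed. Mrpl37 was then at −0.07 and Mrpl27 at −0.65. The group mean of this covariate itself fell from day 1 to day 21, from 10.59 to 10.08 in air and from 10.57 to 10.02 in exposed rats. That fit therefore cannot tell a change with day from a change with erythroid genes.

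The lower quartile of the arrays moved over days as well, from 1.57 ± 0.13 in air and 1.60 ± 0.08 in exposed rats on day 1 to 1.44 ± 0.02 and 1.45 ± 0.03 on day 21 (SD, n = 5 and 6). Without the arrays of weight under 0.5, the day 1 averages were 1.51 ± 0.02 and 1.57 ± 0.03 (n = 4 each). With the lower quartile as a covariate 2 of the 63 genes passed, Mrpl27 and Mrps21l, and both fell (against 1.11% of all probe sets).

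Within groups, the correlations among the 63 genes were mostly weak and more often positive than negative. They were not set against those within another gene family. After subtraction of the group means, the correlation between 2 genes over the 69 arrays had a median of 0.11, and 71.0% of 1953 pairs were positive, against a median of −0.0024 and 49.5% for all tested genes with 1 symbol. The points share arrays, and the arrays share one normalization. The highest pairs were Mrpl46 with Mrpl47 (r = 0.65), Mrps33 with Mrps9 (0.61) and Mrpl23 with Mrps9 (0.60). The head-to-head pair Mrpl46 and Mrps11 had r = −0.26, and Mrps11 lay below the lower quartile on 2 arrays.

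The mean of the 63 genes per array ran from 4.15 to 4.81 (median 4.58). After subtraction of group means it followed the lower quartile (r = −0.81), the mean of 1104 olfactory receptor genes, which blood cells are not known to use as a class (−0.81), and the means of cytosolic ribosomal proteins (0.81), mitochondrial translation factors (0.81) and T cell genes (0.71). With erythroid genes it had r = −0.42 and with platelet genes 0.21, all over 69 arrays. Of the 63 genes, 58 had a positive correlation with cytosolic ribosomal proteins and 53 a negative one with the lower quartile.

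**Figure D4:**
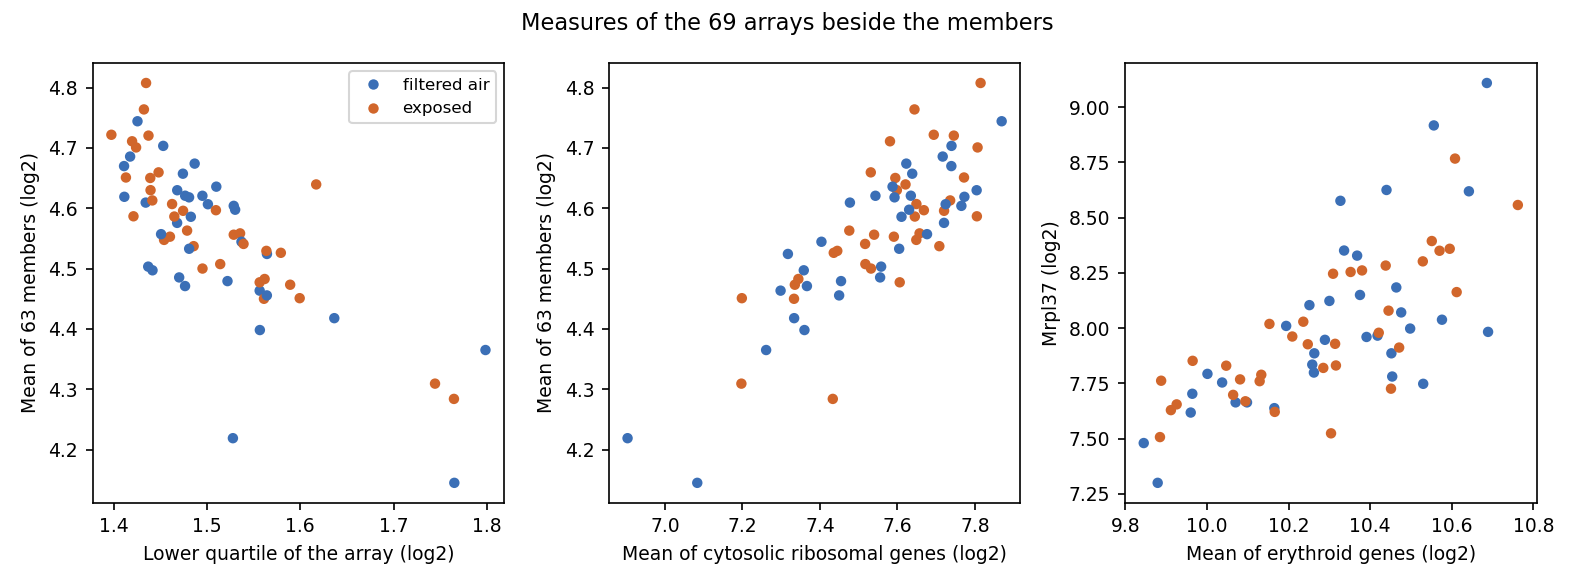
Mean of the 63 genes per array (log2, vertical axis) against the lower quartile of the array and against the mean of cytosolic ribosomal protein genes, and Mrpl37 against the mean of the erythroid genes (log2), with a point per array (69) and colours for the arms. The lowest means of the 63 genes, 4.15 and 4.22, belong to air arrays of days 13 and 17, and Mrpl37 is high where erythroid genes are high.

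A positive correlation with erythroid genes was seen in 13 of the 63 genes, and with the lower quartile in 10. Mrpl37 had the highest of both. Its correlations within groups were 0.59 with erythroid genes, 0.65 with the lower quartile, −0.67 with monocyte, −0.57 with T cell and −0.54 with B cell genes. The 5 lowest pairs among the 63 genes all held Mrpl37, from −0.48 with Mrps9 to −0.65 with Mrps33. Mrpl27, which also fell over days, had 0.13 with erythroid genes and −0.06 with the lower quartile. Mrps23, which rose, had −0.67 with the lower quartile, 0.62 with T cell and 0.61 with B cell genes.

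The spread of a gene between arrays of a group differed across the list. The SD within groups was 0.63 for Mrpl42, 0.54 for Mrps30 and 0.53 for Mrps33, and 0.21 for Mrpl38, 0.23 for Mrps2 and 0.23 for Mrps15. Mrpl42 had the largest positive estimate of change over days in the plot, 0.54 ± 0.23, without passing, and it lay below the lower quartile of the array on 8 arrays. Besides Mrps11, Mrpl28 did so on 1 array.

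On day 21 the telemetry implant was compared with no implant in each arm, which share the same air or exposed arrays with the exposure comparisons of that day. In filtered air 0 of the 63 genes passed (background 0.468%), and 7 had an unadjusted p under 0.05 (11.1%, against 9.52%). In PEPs-exposed rats 0 passed (background 1.22%), and 11 had an unadjusted p under 0.05 (17.5%, against 11.9%), 9 of them higher with the implant. The median over the 63 genes was 0.05 in air, or between 0.0045 (without air replicate 4 of the rats with no implant) and 0.08 (without air replicate 5 of these) with single arrays left out. In exposed rats it was 0.12, or between 0.07 (without exposed replicate 2 of the rats with no implant) and 0.16 (without exposed replicate 5 of these).

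Mrpl40, a large subunit protein found only in mitochondria, differed in opposite directions with and without the implant. Without it, air arrays ran from 4.54 over a median of 4.89 to 5.28 and exposed arrays from 4.32 over 4.57 to 4.71 (−0.42 ± 0.16, adjusted p = 0.888). With it, air arrays had 4.39, 4.62, 4.18 and 4.57 and exposed arrays 4.83, 4.68, 5.37 and 4.92, with no overlap (0.52 ± 0.19, adjusted p = 0.814). The difference between these effects was 0.94 ± 0.25 (adjusted p = 0.464). For that difference 0 of the 63 genes passed, against 0% of all probe sets, and 3 had an unadjusted p under 0.05 (4.76%, against 5.26%).

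**Figure D5:**
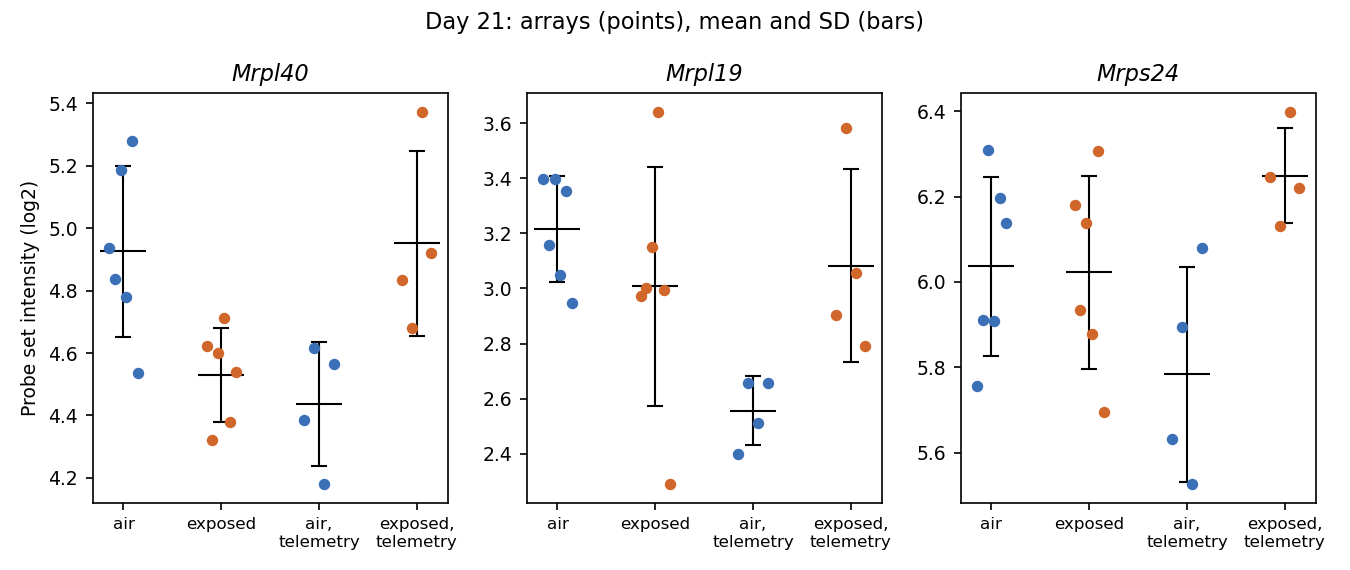
Probe set intensity (log2, vertical axis) of Mrpl40, Mrpl19 and Mrps24 in the 4 groups of day 21, with a point per array, a bar at the mean and whiskers of 1 SD. Mrpl40 averaged 4.93 in air and 4.53 in exposed rats without the implant, and 4.44 and 4.95 with it.

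Mrpl19, the counterpart of bacterial L19, ran from 2.95 to 3.40 in air rats without the implant (median 3.25), and its telemetry air arrays had 2.40, 2.66, 2.51 and 2.66, which lay below them (−0.66 ± 0.23, adjusted p = 0.238). In exposed rats the groups overlapped, from 2.29 to 3.64 without and from 2.79 to 3.58 with the implant, and the difference between the exposure effects was 0.69 ± 0.32 (adjusted p = 0.923). Mrps24 is the counterpart of bacterial S3. Its telemetry air arrays had 5.63, 5.89, 5.53 and 6.08 and its telemetry exposed arrays 6.25, 6.13, 6.40 and 6.22, with no overlap (0.47 ± 0.19, adjusted p = 0.854). Mrpl53 was 0.45 ± 0.15 higher with the implant in air (adjusted p = 0.213), and in exposed rats Mrpl21 was 0.37 ± 0.14 (adjusted p = 0.219) and Mrpl54 0.34 ± 0.13 (adjusted p = 0.225) higher, none past the threshold. The median of the NK and cytotoxic genes with the implant was 0.56 in air, where 2 of 12 passed, all higher (0.468% of all probe sets passed). In exposed rats it was 1.16, and 10 of 12 passed, all higher (1.22% of all probe sets passed). Monocyte genes of exposed rats had a median of 0.72 (6 of 12 higher) and T cell genes of −0.32 (3 of 17 lower). In air T cell genes had a median of −0.27 (2 of 17 lower). The part of cell composition was not tested.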

How the data were processed

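Total RNA of whole blood was hybridised to Affymetrix Rat Gene ST arrays. The authors deposited log2 probe set intensities made by robust multi-array average (RMA) with the oligo package, and the submitters' processing notes also name limma and R 3.4. RMA corrects background, gives all arrays the same distribution of probe intensities and summarises the probes of a set, so values are relative to the whole array and not to an amount of RNA. The fit of the deposited values used limma 3.58.1 in R 4.3.3. A minimum variance of 0.05 across arrays kept 34176 probe sets, and the model had 1 mean per group over all 69 arrays, array weights by the gene-by-gene update, empirical Bayes moderation and Benjamini-Hochberg adjustment over all probe sets of a comparison. The threshold was an adjusted p under 0.05. Weights ran from 0.229 to 1.63, so a fitted difference can depart from the difference of plain group means, and 4 arrays had a weight under 0.5. The median log2 intensity of an array was 2.44 to 2.78. The number of arrays per group, 4 to 6, limits the precision. Each array is a separate rat according to the study's methods.

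Comparisons were exposed against air on each day, with telemetry and over the mean of 6 days, the course and the linear change over days per arm and over both arms, the effect of the implant per arm, and the differences between these effects. The exposure experiment was run more than once, and the labels do not say which array belongs to which run, so no term for it was fitted. Genes were named from each comparison by the smallest p, or by the largest change among those that passed, up to 6 each way for the change over days of both arms. The 63 genes and the lists of other genes were chosen with earlier results of these data known. Alternatives were no array weights, cyclic loess, arrays centred on their median, no variance filter, only the arrays compared, a replicate block, the lower quartile of each array as a covariate, the mean over probe sets of a gene, and leaving out each array. Simulated data with known changes were used to test the fit. In the first simulated set, changes of 1.5-fold were estimated too high. More sets were then drawn, and the check was made on the mean deviation over all of them, the first included. The noise of the simulated sets was drawn independently for each probe set, so variation shared across an array was not tested. Promoters were taken from a RefSeq table (GRCr8), and 13 genes not matched there were not analysed for motifs.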

Additional observations from a re-analysis of the deposited data

Results flagged for a closer look

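In 186 groups of 4 to 6 arrays examined for the named genes and for the mean of the 63 genes, 1 array lay far from the rest of its group in 9 (4.84%), and chance alone gives about 1 in 20.

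The mean of the 63 genes was 4.365 in air replicate 2 of day 1 and between 4.598 and 4.636 in the other 4 air arrays of that day, and this array had a weight of 0.23 in the fit. In air on day 17, replicate 2 had 4.739 for Mrpl4, against 5.449 to 5.524 in the others, and replicate 4 had 4.54 for Mrps17, against 4.105 to 4.166.

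Among genes that changed over days, Mrpl27 was 5.78 in air replicate 2 of day 21 (others 5.199 to 5.402), and Mrpl37 was 7.3 in air replicate 3 of that day (others 7.638 to 7.835). Mrps21l was 4.761 in air replicate 3 of day 1 (others 5.511 to 5.686). In exposed rats, Mrps5 was 3.479 in replicate 1 of day 1 (others 3.867 to 3.99), Mrps2 was 4.319 in replicate 4 of day 9 (others 3.58 to 3.786), and Mrps23 was 3.968 in replicate 1 of day 13 (others 4.646 to 4.915). The change over days of both arms kept its direction for each of these 6 genes and for Mrpl4 when the array concerned was left out, and Mrps5 no longer passed (0.22 without exposed replicate 1 of day 1, 0.26 with all arrays). The difference of Mrps17 between the arms on day 17 was 0.41, or 0.52 without air replicate 4 and 0.27 without exposed replicate 5, and passed in none of these.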

How the results depend on the processing

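For each exposure comparison, for both implant comparisons and for the differences between effects, the count of the 63 genes that passed stayed at 0 under each alternative run and with each array left out. For the course over days, the counts in the alternatives are given without the share of all probe sets, so they describe the calls only. In air (3 genes) the count was 1 with only the air arrays and 0 with the lower quartile as a covariate. In exposed rats (2 genes) it was 0 without array weights, with only the exposed arrays and with the lower quartile, 1 with arrays centred on their median or without the 4 arrays of weight under 0.5, and between 0 and 3 with single arrays left out (0 without exposed replicate 2 of day 1 or of day 5, and 1 without replicate 4 of day 1, 1 or 4 of day 5, 3 of day 13, or 2, 4 or 5 of day 21).

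For the linear change over days, the median of the 63 genes turned from 0.04 to −0.098 in air, from 0.13 to −0.049 in exposed rats and from 0.08 to −0.076 over both arms after cyclic loess, and to −0.094, −0.116 and −0.107 with the lower quartile as a covariate, and in air it was −0.0082 without air replicate 5 of day 21. The lower quartile left 2 calls in air, 0 in exposed rats and 2 over both arms. Over both arms 0 of the 63 rose, against 0.544% of all probe sets, and 2 fell, against 1.11%. The shares of all probe sets for the single arms are not given here. The erythroid mean as a covariate and leaving out the 4 arrays of low weight were chosen after seeing the data. With the erythroid mean, which itself fell over days, 0 calls were left, against 0 of all probe sets. The median was then −0.076, and Mrpl4 (−0.047) and Mrps2 (−0.0035) changed sign. Over both arms the count was between 10 and 17 with single arrays left out, and 10 without the 4 arrays (2 up and 8 down, against 12.2% and 8.47% of all probe sets). The cause of these changes was not tested.

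Replicate numbers do not pair rats, since different rats were sampled in each group. The deviations of same-numbered arrays from their group means correlated at over 0.1 in 1 of 34 pairs (range −0.076 to 0.249). With the replicate number as a block, 0 genes passed in the exposure comparisons, and 15 changed over days in both arms. Of these 15, 7 rose, against 15.1% of all probe sets, and 8 fell, against 11.7%. They included 12 of the 13. Mrps2 no longer passed, with a log2 change of 0.20. In a group of 4 to 6 arrays, the number of arrays limits what can be detected.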

Other observations

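Mrpl21, the counterpart of bacterial L21, had nearly the same value in all 5 air arrays of day 1, from 4.86 to 4.88 (SD 0.008), while the 5 exposed arrays of that day ran from 4.83 to 5.45 (SD 0.252). The air arrays of day 21 ran from 4.66 to 5.12. The spread of this gene was looked at after its values were seen and was not tested.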
